A study of Sus scrofa with 34 samples.

Results

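The growth hormone and insulin-like growth factor (IGF) axis was followed in the liver and ileum of weaned piglets through a list of 10 genes chosen by symbol. Of these, 7 could be matched to a gene among the 25880 genes counted: the growth hormone receptor GHR, the ligand IGF1, the acid-labile subunit IGFALS, the binding proteins IGFBP1, IGFBP2 and IGFBP4, and the receptor IGF1R. IGF2, IGFBP3 and SOCS2 had no symbol match and were not analysed here. RNA was sequenced from crossbred piglets (Landrace × Large White sows, Pietrain boar), aged about a month at arrival, after 28 days on a basal diet (control), the basal diet with a phytogenic feed additive (PFA, a blend with oregano and caraway oils, carvacrol, methyl salicylate and menthol), a diet with oxidized rapeseed oil (OO), or the oil diet with the additive (OO + PFA). The liver gave 24 libraries, 6 per diet, and the ileum gave 10 libraries, 5 control and 5 PFA, from pigs whose liver was also sequenced. All pigs of a diet shared 1 pen, so a pen effect cannot be separated from a diet effect. The oil diets held 10% oxidized oil, with the other ingredients lowered in share. No diet had that much fresh oil, and the paper calculates more energy for the oil diets. Oxidation was therefore not tested apart from the added fat and energy. In whole tissue, fewer cells of a type and less RNA per cell cannot be told apart either.

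In the classical axis, growth hormone binds GHR on hepatocytes and activates JAK2 and STAT5, which drive transcription of IGF1 and IGFALS. Circulating IGF1 is held by binding proteins, mostly in a complex with IGFALS, and acts through IGF1R, which is abundant in many tissues but scarce on hepatocytes. IGFBP1 is made by the liver and responds to insulin: insulin represses its promoter through the exclusion of FOXO1 from the nucleus, and the same factor acts on genes of glucose production.

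The liver libraries held 18738055 to 42446834 read pairs counted on genes and the ileum libraries 18772230 to 24338165. Levels are given in CPM (read counts divided by the library size in megareads) with TMM scaling, and the diets were tested with edgeR (quasi-likelihood, Benjamini-Hochberg adjustment over all genes tested). A gene is called where its adjusted p does not exceed 0.05. The liver fit held 23 libraries, without OO + PFA Pig77, which the study also left out. All 10 hepatocyte markers listed were present in the liver, with a summed level between 102940 and 230160 CPM per library, against 3825 to 8689.6 CPM in the ileum, where 7 of the 10 averaged below 1 CPM. The 7 enterocyte markers found summed to between 14183 and 22854 CPM in the ileum. The libraries also differed in how the level of a gene depended on its GC content, expressed as the slope of a library in log2 units per 10% GC. This slope lay between -0.234 and 0.0552 in the control livers, between -0.503 and 0.0385 with PFA, between -0.406 and 0.390 with OO and between 0.0117 and 0.459 with OO + PFA, and its mean was 0.0905 in the 11 oil livers and -0.137 in the 12 livers without oil. Of the liver libraries, 10 had titles of the form PL and 14 of the form PigLiv, a form that the labels do not explain. Pigs are named below by their number in the library titles (Pig77 for pig number 77).

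In the liver, the most members were called for the oil. OO alone against control called 0 of the 7 in edgeR, beside 2.71% of all genes. The smallest p of a member in any liver comparison was that of IGFBP1 for OO + PFA against PFA (edgeR adjusted p = 0.0262). When both oil diets were set against both diets without oil, 4 of the 7 genes were called, where 11.8% of all 13831 genes tested were called (8.95% higher and 2.83% lower): IGF1, IGFALS and IGFBP1 were higher and GHR was lower. IGFBP2, IGFBP4 and IGF1R did not pass. The median log2 fold change of the 7 genes was 0.26, beside 0.01 for all genes. In the test across all 4 diets, 1 of the 7 genes was called, IGFBP1, where 3.66% of all genes were called. The same 4 genes as for the oil had an unadjusted p under 0.05 in that test, as had 25.2% of all genes. DESeq2 called these 4, and it called 1776 genes in all where edgeR called 506. Among the markers of cell types, the oil comparison called 3 of 10 hepatocyte markers (TAT higher, TF and SERPINA1 lower), 1 of 9 macrophage markers, MARCO, 1 of 7 bile duct markers, CFTR, and 1 of 5 enterocyte markers, APOA4, the last 3 higher, and 0 of the stellate cell, endothelial, smooth muscle and lymphocyte markers. The 9 macrophage markers summed to between 525 and 1448 CPM in control, 649 and 1566 with PFA, 1011 and 1898 with OO and 929 and 2122 with OO + PFA. The part of these markers in the results below was not tested.

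The 4 oil calls had an adjusted p between 0.0326 and 0.0435 in edgeR, and 0 of them remained when the GC slope of each library was added as a term. Over all genes, that term took the oil calls from 1630 to 426. This count is limited, as 79.7% of liver genes had a GC value, under the 80% set as a minimum. The slope was read from levels centred over all livers, with the diets left in. A diet effect that goes with GC content is therefore part of the slope, and the term cannot separate them. In the PigLiv-titled libraries alone 1 of the 7 genes was called, GHR at -0.66 (edgeR adjusted p = 0.0182), beside IGF1 at 0.56 (edgeR adjusted p = 0.0937), IGFALS at 1.62 (edgeR adjusted p = 0.151) and IGFBP1 at 0.80 (edgeR adjusted p = 0.211). The number of all genes called for the oil in these libraries stayed within 1.5 times of 1630. The comparisons of single diets that follow share their control and PFA livers with each other and with the oil comparison.

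**Figure D1:**
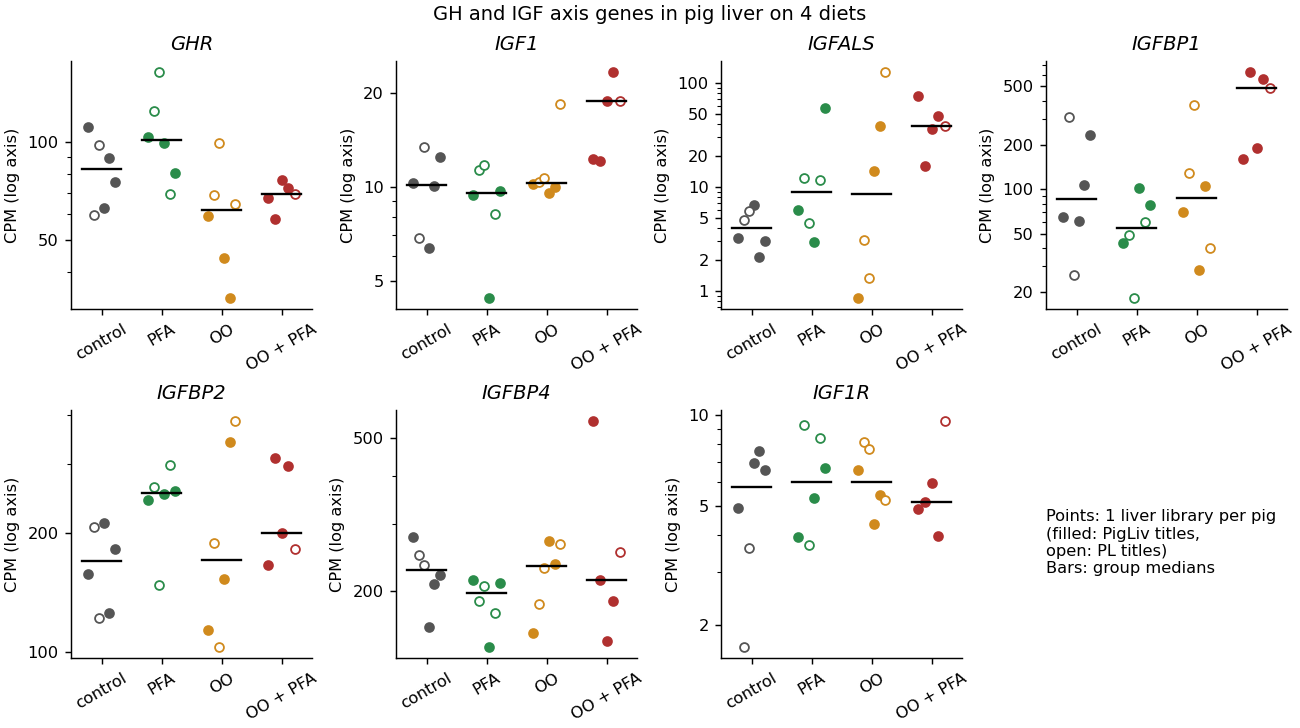
CPM (log axis) of the 7 genes in 23 liver libraries by diet, with 1 point per pig, filled for libraries titled PigLiv and open for libraries titled PL, and a bar at the median of each diet. IGF1 with OO + PFA lies above every PFA liver, and IGFALS with OO + PFA lies above every control liver, while the points of IGF1R overlap in all diets.

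GHR (ENSSSCG00000016866; Sscrofa11.1 chromosome 16, 27126300 to 27422618, plus strand), the receptor at the head of the axis, was read from 803 to 4269 counts in the 23 livers. In the control livers it ranged from 59.6 to 111 CPM with a median of 82.6, and in the PFA livers from 69.5 to 164 CPM with a median of 101.6. The OO livers ranged from 33.4 to 99.3 CPM with a median of 61.9, and the 5 OO + PFA livers stood at 58.2, 67.3, 69.3, 72.3 and 76.8 CPM. The oil groups overlapped with the others: 4 of 11 oil livers lay below every liver without oil, and 10 of 11 lay below the mean of the livers without oil. GHR was at 64.8 ± 17.1 CPM (SD, n = 11) with oil and 94.8 ± 29.4 (SD, n = 12) without, a log2 fold change of -0.53 (standard error 0.16) or 1.45-fold lower (edgeR adjusted p = 0.0349). It was not called for OO against control (-0.43, standard error 0.22, edgeR adjusted p = 0.267) or for OO + PFA against PFA (-0.64, standard error 0.23, edgeR adjusted p = 0.127). The oil call was lost, with the adjusted p rising to at most 0.066, when any 1 of 14 pigs was left out: control Pig71, Pig85 or Pig100, PFA Pig67, Pig75, Pig95 or Pig107, OO Pig99, Pig102 or Pig130, or OO + PFA Pig79, Pig98, Pig126 or Pig137. With all 24 livers it was lost as well, at -0.64 (edgeR adjusted p = 0.0525), and with the GC slope as a term the difference shrank to -0.25 (edgeR adjusted p = 0.405). Over 11 alternatives other than leaving out a pig the adjusted p ran from 0.0114, in DESeq2, to 0.405.

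IGF1 (ENSSSCG00000000857; chromosome 5, 81762027 to 81909253, plus strand), the hormone that the liver releases in answer to growth hormone, rested on 118 to 615 counts per liver. The control livers ranged from 6.38 to 13.4 CPM with a median of 10.2, the PFA livers from 4.42 to 11.8 with a median of 9.55. With OO, 5 livers stood between 9.56 and 10.7 CPM and Pig130 stood at 18.4. With OO + PFA the levels were 12.1, 12.2, 18.8, 18.8 and 23.2 CPM. The OO + PFA livers therefore did not overlap with the PFA livers, and 3 of the 5 lay above every control liver. All 11 oil livers lay above the mean of the livers without oil, at 14.02 ± 4.82 CPM (SD, n = 11) against 9.52 ± 2.65 (SD, n = 12). This was a 1.47-fold higher level with oil (log2 fold change 0.56, standard error 0.17, edgeR adjusted p = 0.0353).

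Between single diets IGF1 was not called. OO + PFA against control gave a log2 fold change of 0.78 (standard error 0.24, edgeR adjusted p = 0.0602), OO + PFA against PFA gave 0.90 (standard error 0.24, edgeR adjusted p = 0.0612), OO against control gave 0.21 (standard error 0.23, edgeR adjusted p = 0.631), and PFA against control gave -0.12 (standard error 0.23, edgeR adjusted p = 0.879). Without OO Pig130 both OO + PFA comparisons were called, at adjusted p of 0.0393 against control and 0.0395 against PFA, and without PFA Pig107 the comparison with control was called, at 0.0405 (edgeR). The oil call was lost, at an adjusted p between 0.0514 and 0.0758, without any 1 of control Pig71, Pig92 and Pig100, PFA Pig67 and Pig107, OO Pig102 and Pig130, and OO + PFA Pig105, Pig126 and Pig137. The size of the oil difference moved little with the GC slope as a term, at 0.58, while its adjusted p rose to 0.113 in edgeR, the highest of 11 alternatives, of which DESeq2 gave the lowest, 0.0227.

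IGFALS (ENSSSCG00000008013; chromosome 3, 40173595 to 40177789, plus strand) encodes the acid-labile subunit, the liver protein that holds IGF1 and its binding proteins in the circulating complex. Its transcript has 70.6% GC, the highest of the 7 genes, and its highest liver level was 145 times its lowest. The control livers ranged from 2.12 to 6.77 CPM with a median of 4.03. The PFA livers ranged from 2.999 to 12.2 CPM in 5 pigs and reached 56.9 CPM in Pig138. The 6 OO livers split widely, at 0.869, 1.35, 3.11, 14.2, 38.4 and 126.03 CPM. The OO + PFA livers stood at 15.9, 36.0, 38.7, 47.5 and 75.3 CPM, all above every control liver.

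For OO + PFA against control, IGFALS was 9.82-fold higher (log2 fold change 3.30, standard error 0.95, edgeR adjusted p = 0.0445) and was the 1 member of 7 called, where 5.08% of all genes were called (4.09% higher), and DESeq2 called IGF1 as well, among 1370 genes in all (702 in edgeR). This call was lost, at an adjusted p between 0.0501 and 0.101, without any 1 of 15 pigs: all 6 control pigs, PFA Pig67, Pig75 and Pig134, OO Pig99, or any of the 5 OO + PFA pigs. It was also lost with a term for sex (2.90, edgeR adjusted p = 0.0611), with a term for the title form (3.33, edgeR adjusted p = 0.0523) and in PigLiv-titled libraries alone (3.52, edgeR adjusted p = 0.0644). For OO against control the log2 fold change was 2.81 (standard error 0.91, edgeR adjusted p = 0.0839), and it was called without OO Pig74 or Pig97, at adjusted p of 0.0377 and 0.0321, while without OO Pig130 it measured 1.41 (edgeR adjusted p = 0.398). The oil difference was 4.36-fold (log2 fold change 2.12, standard error 0.63, edgeR adjusted p = 0.0326), with 8 of 11 oil livers above the mean of the livers without oil, and it was lost, at an adjusted p between 0.053 and 0.112, without control Pig71, Pig100 or Pig110, PFA Pig67, Pig95 or Pig107, OO Pig102 or Pig130, or OO + PFA Pig79. Without OO Pig130 it measured 1.42, and with a term for sex it was 1.86 and no longer called (edgeR adjusted p = 0.0504).

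The level of IGFALS moved with the GC slope of the library within the OO group as well as between diets. The 3 OO livers with a slope below 0 held between 0.869 and 3.11 CPM, and the 3 with a slope above 0 held between 14.2 and 126.03 CPM. Over all 23 livers, the 12 with a slope below 0 ranged from 0.869 to 12.2 CPM (median 3.19) and the 11 with a slope above 0 from 4.80 to 126.03 CPM (median 38.4). These 11 were 8 oil livers at 14.2 to 126.03 CPM (median 38.5) and 3 livers without oil at 4.80, 6.77 and 56.9 CPM. Among the 12 below 0, the 3 oil livers had a median of 1.35 CPM and the 9 without oil a median of 4.56 CPM. With the slope as a term, the oil difference of IGFALS was 0.11 on the log2 scale (edgeR adjusted p = 0.944, the highest of 11 alternatives, with DESeq2 lowest at 0.0103), OO + PFA against control was 1.46 (edgeR adjusted p = 0.142, the highest of 12 alternatives, with the fit of both diets alone lowest at 0.000188), and OO + PFA against PFA changed sign from 1.44 to -0.36 (edgeR adjusted p = 0.324 and 0.944). Whether the slope or the diet carries the IGFALS difference was not tested, since the 5 OO + PFA livers all had a slope above 0.

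**Figure D2:**
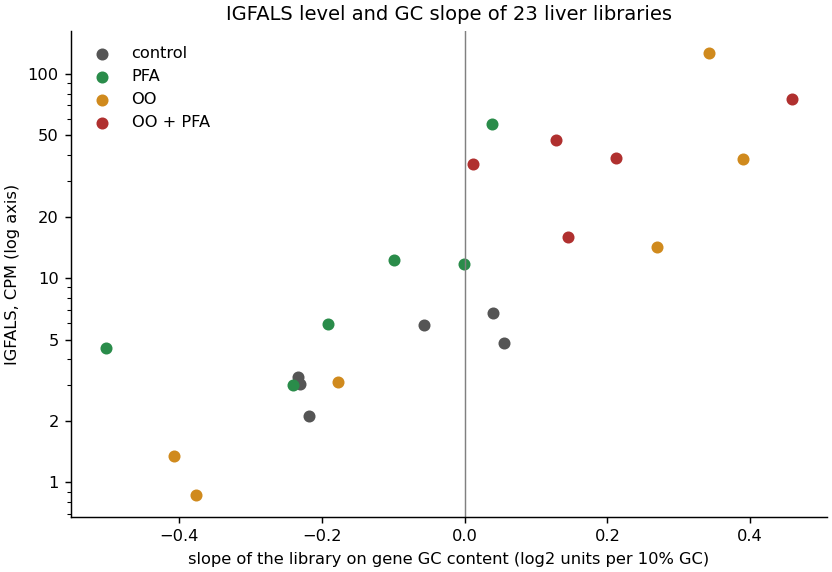
IGFALS level (CPM, log axis) against the GC slope of the library (log2 units per 10% GC) in 23 livers, coloured by diet, with 1 point per pig. The OO livers fall into 3 with a slope below 0 and at most 3.11 CPM and 3 with a slope above 0 and at least 14.2 CPM, and all OO + PFA livers lie to the right of 0.

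IGFBP1 (ENSSSCG00000016728; chromosome 18, 50018487 to 50022799, minus strand), the binding protein that insulin represses, was the member with the smallest p across the 4 diets (edgeR adjusted p = 0.0416). The stretch of bases 250 to 101 before the RefSeq start of its transcript is shown because it holds the letters of the insulin response element, the site through which FOXO1 acts on this gene in other mammals. It lies on Sscrofa11.1 at chr18:50022900-50023049, read on the minus strand, and the capitals mark CAAAACA and TATTTTG with the 4 bases between them, from base 208 to base 191 before the start. The RefSeq model is 837 bases long and close to coding length, so its start may lie downstream of the point where transcription begins:
IGFBP1 upstream: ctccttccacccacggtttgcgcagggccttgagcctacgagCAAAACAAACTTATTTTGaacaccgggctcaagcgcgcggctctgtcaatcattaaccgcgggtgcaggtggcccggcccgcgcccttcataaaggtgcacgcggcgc

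Searched on both strands, CAAAACA occurred in 304 of 13701 windows of the same length and place (2.22%), and the pair of short motifs with that spacing, which was read from this window, occurred in 1 of them (0.0073%), IGFBP1 itself. Of the windows of the 7 members only that of IGFBP1 held CAAAACA, and of the 11 windows for a list of FOXO1 targets 0 did, which says nothing of binding elsewhere.

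The control livers held between 26.3 and 311 CPM of IGFBP1 (median 85.3) and the PFA livers between 18.4 and 102.1 CPM (median 54.2). The OO livers ranged from 28.3 to 129 CPM in 5 pigs, with Pig97 at 373 CPM. The OO + PFA livers stood at 162, 192, 490, 557 and 622 CPM, all 5 above every PFA liver and 3 of them above every control liver. IGFBP1 was thus at 404 ± 213 CPM (SD, n = 5) with OO + PFA against 58.4 ± 29.2 (SD, n = 6) with PFA alone, a 6.93-fold higher level (log2 fold change 2.79, standard error 0.64, edgeR adjusted p = 0.0262), and 1 of the 7 members was called in this comparison, where 1.58% of all genes were called (1.24% higher). DESeq2 called IGF1 as well, among 697 genes in all (218 in edgeR). The edgeR call of IGFBP1 was lost, at an adjusted p between 0.0566 and 0.0714, without PFA Pig67, Pig75 or Pig95 or OO + PFA Pig98, Pig126 or Pig137, and in PigLiv-titled libraries alone (2.37, edgeR adjusted p = 0.171).

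The oil difference of IGFBP1 was 2.54-fold (log2 fold change 1.34, standard error 0.43, edgeR adjusted p = 0.0435), with 8 of 11 oil livers above the mean of the livers without oil. Set against the mean of the control livers alone, 1 of 6 OO livers and 5 of 5 OO + PFA livers lay above it. OO alone against control gave -0.11 (standard error 0.59, edgeR adjusted p = 0.936), a value that turned positive, to at most 0.34, without control Pig80 or Pig110 or OO Pig74, Pig99 or Pig130, and OO + PFA against control gave 1.60 (standard error 0.62, edgeR adjusted p = 0.122). The oil call was lost, at an adjusted p between 0.0526 and 0.078, without any 1 of control Pig71, Pig85, Pig92 and Pig100, PFA Pig67, Pig75, Pig95 and Pig134, OO Pig88, Pig97 and Pig102, and OO + PFA Pig98, Pig126 and Pig137. Without OO Pig97 the difference was 0.97, and with the GC slope as a term it was 1.51 (edgeR adjusted p = 0.061). The call was lost too with a term for the title form (1.31, edgeR adjusted p = 0.0523) and with all 24 livers (1.25, edgeR adjusted p = 0.0515), and over 11 alternatives the adjusted p ran from 0.0332, in DESeq2, to 0.211. The call across the 4 diets was lost, at an adjusted p between 0.0503 and 0.0958, without control Pig71, Pig92 or Pig100, PFA Pig67, Pig75, Pig95 or Pig134, OO Pig88 or Pig102, or OO + PFA Pig98, Pig126 or Pig137, and in PigLiv-titled libraries alone (edgeR adjusted p = 0.0794).

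The additive itself gave no call among the 7 genes in the liver. For OO + PFA against OO, IGFBP1 gave a log2 fold change of 1.70 (standard error 0.62, unadjusted p = 0.0114, edgeR adjusted p = 0.469) and IGF1 gave 0.57 (standard error 0.24, edgeR adjusted p = 0.551), and 2 of 7 members had an unadjusted p under 0.05, as had 8.5% of all genes. For PFA against control, IGFBP1 gave -1.20 (standard error 0.59, edgeR adjusted p = 0.459), IGFALS 1.86 (standard error 0.89, edgeR adjusted p = 0.450), IGFBP2 0.53 (standard error 0.28, edgeR adjusted p = 0.480) and GHR 0.37 (standard error 0.22, edgeR adjusted p = 0.545), and 1 of 7 members, IGFALS, had an unadjusted p under 0.05, as had 11% of all genes. Without PFA Pig138 the IGFALS value was 0.79 (edgeR adjusted p = 0.764). EdgeR called 0% of all genes in both comparisons, and DESeq2 called 0 members in both, 31 genes for OO + PFA against OO and 18 for PFA against control. The test of whether the oil effect differed with the additive gave IGFBP1 a difference of 2.90 on the log2 scale (standard error 0.86, unadjusted p = 0.00260, edgeR adjusted p = 0.179), the smallest p of the 7, and IGF1 0.68 (standard error 0.34, edgeR adjusted p = 0.380). In that test edgeR called 0 genes (0%) and DESeq2 150 genes and 0 members, and 1 of 7 members had an unadjusted p under 0.05, as had 13.6% of all genes.

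IGFBP2 (ENSSSCG00000035392; chromosome 15, 118822092 to 118850985, plus strand), a binding protein that the liver secretes, ranged from 122 to 213 CPM in the control livers, from 148 to 298 with PFA, from 103 to 385 with OO and from 166 to 310 with OO + PFA. It lay above every control liver in 5 of 6 PFA livers, the exception being Pig95 at 148 CPM. Its oil difference was 0.14 on the log2 scale (standard error 0.20, edgeR adjusted p = 0.709), and -0.25 with the GC slope as a term. IGFBP4 (ENSSSCG00000017472; chromosome 12, 21966524 to 21980043, minus strand), a binding protein that keeps IGF1 from its receptor until proteases cut it, ranged from 162 to 278 CPM in control, 144 to 214 with PFA and 156 to 271 with OO. With OO + PFA it was between 149 and 253 CPM in 4 livers and 554 CPM in Pig79. Its oil difference was 0.26 (standard error 0.17, edgeR adjusted p = 0.331).

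IGF1R (ENSSSCG00000030560; chromosome 1, 137383623 to 137691038, minus strand), the receptor that takes up the IGF1 signal, was at 1.70 to 9.54 CPM in the liver, from 45 to 327 counts, and the diets overlapped. Its oil difference was 0.09 on the log2 scale (standard error 0.22, edgeR adjusted p = 0.840), and it turned negative, at -0.00242 and -0.0323, without control Pig80 or OO + PFA Pig137.

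**Figure D3:**
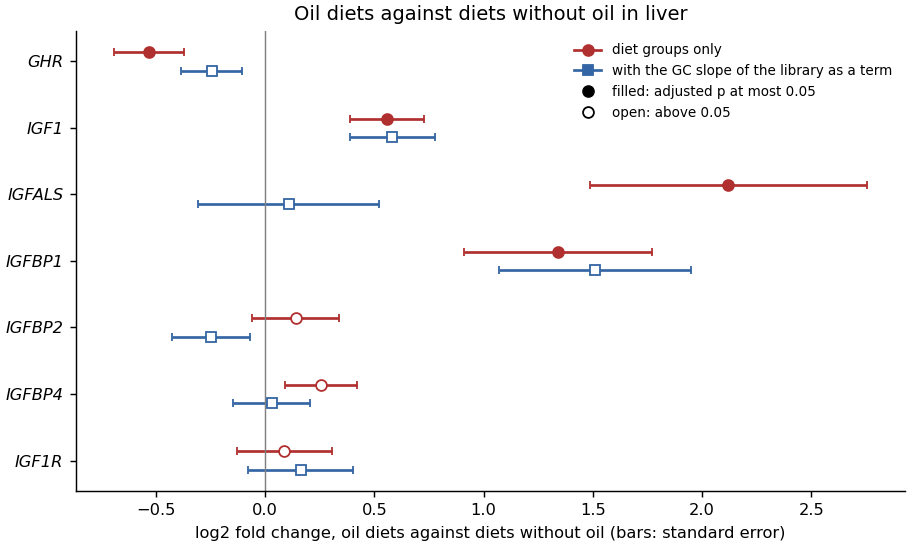
Log2 fold change of the 7 genes between the oil diets and the diets without oil in 23 livers, with bars for the standard error, fitted with the diets alone (red circles) and with the GC slope of the library as a term (blue squares). Symbols are filled where the adjusted p is at most 0.05, which holds for GHR, IGF1, IGFALS and IGFBP1 with the diets alone and for 0 genes with the slope, where IGFALS moves from 2.12 to 0.11.

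Genes around the axis were read from 4 lists. Of 17 genes of the growth hormone receptor signal tested, among them JAK2, STAT5A, STAT5B, CISH and SOCS3, 0 were called across the diets and 1 between oil and no oil, SH2B2, an adaptor of JAK2 and receptor tyrosine kinases (log2 fold change 1.11, standard error 0.33, edgeR adjusted p = 0.0310). This was 5.88% of the list, beside 11.8% of all genes, and its median for the oil was 0.00, beside 0.01. Of 13 other IGF receptors, binding proteins and proteases, IGFBP6, a binding protein that prefers IGF2, was called across the diets and with oil (0.88, standard error 0.23, edgeR adjusted p = 0.0192), from levels between 0.292 and 2.12 CPM. In the same list 1 other gene was called, lower, for the oil, IGF2BP3 (-0.38, standard error 0.12, edgeR adjusted p = 0.0389). IGF2BP3 is an IGF2 mRNA-binding protein, which binds the transcript and not the hormone. With it, 15.4% of the list was called, beside 11.8% of all genes.

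Of 30 genes of the insulin and IGF signal inside the cell, 3 were called higher and 1 lower with oil, or 13.3%, beside 11.8% of all genes. IRS2, an insulin receptor substrate, was at 2.11 ± 0.346 CPM (SD, n = 6) in control and 14.6 ± 2.62 (SD, n = 5) with OO + PFA (log2 fold change 2.78, standard error 0.51, edgeR adjusted p = 0.00522), while its OO livers ranged from 0.718 to 13.7 CPM. GRB10, an adaptor that dampens the insulin and IGF1 receptors, was 0.57 higher with oil on the log2 scale (standard error 0.12, edgeR adjusted p = 0.00712), and EIF4EBP1, a repressor of translation under mTOR, was 0.80 higher (standard error 0.20, edgeR adjusted p = 0.0138). GRB14, an inhibitor of the insulin receptor, was lower with oil (-0.34, standard error 0.11, edgeR adjusted p = 0.0413) and for OO against control (-0.60, standard error 0.15, edgeR adjusted p = 0.0306), a comparison in which 0 of the 7 members were called by edgeR and 2.71% of all genes were (1.37% higher and 1.34% lower). IGFALS was the 1 member with an unadjusted p under 0.05 there, as had 21.4% of all genes, and the 1 called by DESeq2, which called 1079 genes in all (375 in edgeR).

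The list of FOXO1 targets held 12 genes tested, and TAT, KLF15 and PCK1 were higher with oil, or 25% of the list, beside 11.8% of all genes (8.95% higher). For the oil 6 of the 12 had a positive and 6 a negative fold change, with a median of 0.04 on the log2 scale, beside 0.01 over all genes. Across the diets 4 of the 12 were called, against 3.66% of all genes: PCK1 and G6PC1, enzymes of glucose production, TAT, the enzyme that opens tyrosine breakdown, and KLF15, a factor of the fasted liver. All 4 were higher with OO + PFA than with PFA alone, where 1.58% of all genes were called, PCK1 by 2.47 (standard error 0.39, edgeR adjusted p = 0.00122), G6PC1 by 2.36 (standard error 0.52, edgeR adjusted p = 0.0209), TAT by 1.49 (standard error 0.25, edgeR adjusted p = 0.00165) and KLF15 by 1.33 (standard error 0.24, edgeR adjusted p = 0.00346) on the log2 scale. Against control, 3 of the 12 were higher with OO + PFA, and G6PC1 stood at 1.59 (standard error 0.51, edgeR adjusted p = 0.0662). OO alone against control gave 0 calls in this list, with PCK1 at -0.60 (standard error 0.37, edgeR adjusted p = 0.349) and G6PC1 at -0.76 (standard error 0.49, edgeR adjusted p = 0.380). The median of the list was 0.36 for OO + PFA against PFA and -0.17 for OO against control, beside 0.00 and 0.06 over all genes. The other 8 genes, among them PPARGC1A, PDK4, SESN1 and TXNIP, were not called in any liver comparison. TAT also stands among the 10 hepatocyte markers. With the GC slope as a term, PCK1, TAT and KLF15 were still called for OO + PFA against PFA and G6PC1 was not, while for the oil only TAT was still called and PCK1 and KLF15 were not. In PigLiv-titled libraries alone 0 of the 4 were called for OO + PFA against PFA, and TAT and KLF15 were called for the oil.

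**Figure D4:**
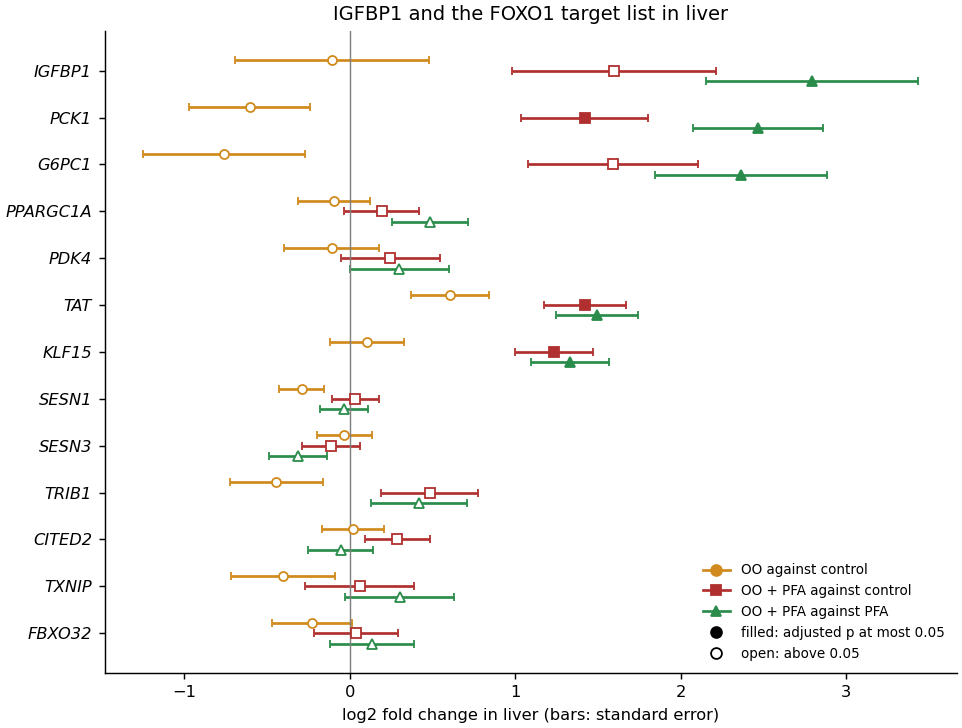
Log2 fold change with its standard error of IGFBP1 and the 12 FOXO1 targets tested in the liver, for OO against control (orange), OO + PFA against control (red) and OO + PFA against PFA (green), filled where the adjusted p is at most 0.05. IGFBP1, PCK1, G6PC1, TAT and KLF15 have filled green symbols, and 0 genes have a filled orange symbol.

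Within diets, 5 pairs of members were compared over 23 livers on log2 CPM after each diet mean was removed. Pearson's r between IGF1 and GHR was 0.426 (p = 0.0567 over permutations, 0.284 after adjustment). Spearman's rho for the pair was 0.559 (p = 0.00853 over permutations, 0.0426 after adjustment), and when the title form was removed as well it was 0.333 (permutation p = 0.146, adjusted p = 0.268), beside an r of 0.348 (permutation p = 0.13, adjusted p = 0.243). Without the 2 livers farthest from the median of IGF1 the r was 0.512 (permutation p = 0.021, adjusted p = 0.105). IGF1 and IGFALS gave an r of 0.311 (permutation p = 0.148, adjusted p = 0.316) and a rho of 0.172 (permutation p = 0.45, adjusted p = 0.562). When the GC slope of the library was removed from both as well, their r was 0.776 (permutation p = 6e-05, adjusted p = 0.0003) and their rho 0.804. IGF1 with IGFBP1 gave an r of -0.294 (permutation p = 0.189, adjusted p = 0.316), IGF1 with IGFBP2 gave 0.00536 (permutation p = 0.981, adjusted p = 0.981), and IGFBP1 with IGFBP2 gave 0.143 (permutation p = 0.593, adjusted p = 0.741). Their rho values were -0.223, -0.0603 and 0.325, with adjusted permutation p of 0.562, 0.795 and 0.426. With only the diet means removed, no r passed the adjustment over the 5 pairs. Over the same 23 livers, with diets left in, the named genes whose log2 CPM followed IGFBP1 most closely were KLF6 (r = 0.787), TCIM (0.746) and RASGEF1B (0.743), and those closest to IGF1 were TRAP1 (0.841), CLYBL (0.722) and MAP1LC3B (0.695).

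The ileum and liver of the same 10 pigs, 5 on control and 5 on PFA, were compared in a fit of their own. Its TMM factors were taken over both tissues. The CPM values in this paragraph are therefore on another scale than those given for the liver or the ileum alone. All 7 genes were called, where 78.1% of the 14982 genes tested were called (40.6% higher and 37.5% lower in the ileum). IGF1R was higher in the ileum and the other 6 were lower. All 7 had an unadjusted p under 0.05, as had 79.2% of all genes, and in all 10 pigs each gene differed in that direction. IGF1 was at 4.32 ± 1.01 CPM (SD, n = 10) in the ileum and 13.4 ± 3.89 in the liver, a log2 fold change of -1.63 (standard error 0.19, edgeR adjusted p = 1.06e-07). GHR stood at 14.6 ± 3.91 CPM (SD, n = 10) against 137.3 ± 48.9, or -3.22 (standard error 0.18, edgeR adjusted p = 1.04e-12). IGFBP4 stood at 26.6 ± 4.63 CPM (SD, n = 10) against 298 ± 56.2, or -3.48 (standard error 0.13, edgeR adjusted p = 4.69e-16), and IGFBP2 at 1.27 ± 0.499 (SD, n = 10) against 307 ± 82.8, or -7.88 (standard error 0.24, edgeR adjusted p = 2.98e-17). IGF1R, the receptor, was 2.30-fold higher in the ileum, at 20.6 ± 4.80 CPM (SD, n = 10) against 8.95 ± 3.36 (log2 fold change 1.20, standard error 0.22, edgeR adjusted p = 4.40e-05).

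IGFBP1 and IGFALS were near 0 in the ileum. IGFBP1 had 1 count in 1 ileum library and 0 counts in the other 9, against 367 to 8444 counts per liver of the same pigs. Its share of all counts was 23800 times higher in the liver, with an exact 95% interval for counting error alone from 4270 to 940000. IGFALS had 0 to 9 counts per ileum library, 27 in all, and was 89.8 times higher in the liver (61.6 to 136 by the same interval). Of its 3206 liver counts in these pigs, 1751 came from PFA Pig138. These ratios use total counts without TMM factors, and in the tissue fit IGFALS was 137.9-fold lower in the ileum. IGFBP1 and IGFALS were both below the filter on low counts in the ileum, so 5 members were tested there. Scaling moves all genes of this comparison together: without TMM factors the median of all genes went from 0.05 to 1.17, and IGF1 stood at -0.51 and IGF1R at 2.30, with the same directions and calls for the 7 genes.

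**Figure D5:**
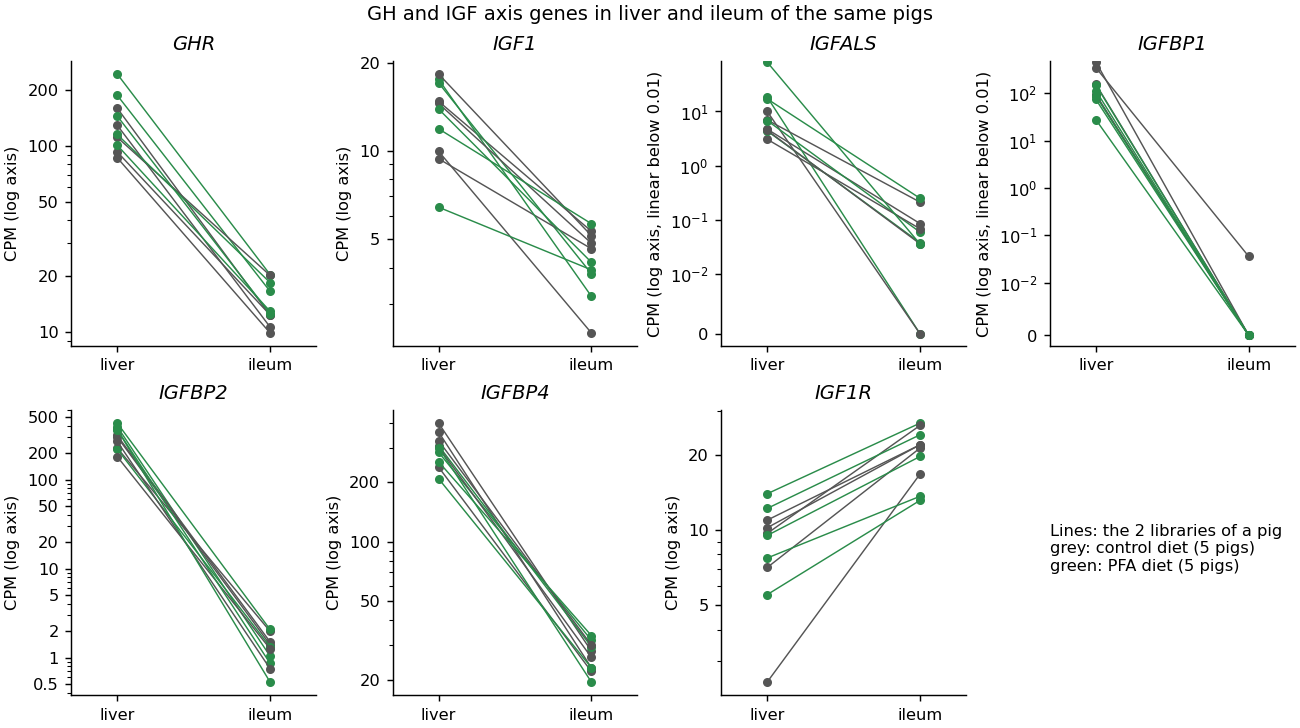
CPM of the 7 genes in the liver and ileum of 10 pigs, with TMM factors taken over both tissues. A line joins the libraries of each pig (grey for control, green for PFA). The axes are logarithmic and turn linear below 0.01 for IGFALS and IGFBP1 so that 0 can be drawn. The lines fall from liver to ileum in all pigs for 6 genes and rise in all pigs for IGF1R.

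The other genes of the axis were spread over both tissues: of the 17 genes of the growth hormone receptor signal 6 were higher and 6 lower in the ileum, with JAK2, the kinase bound to GHR, 3.05-fold higher there (log2 fold change 1.61, standard error 0.09, edgeR adjusted p = 9.30e-13). The list of the insulin and IGF signal had 9 genes higher and 15 lower of 30, with IRS1, a substrate of the insulin and IGF1 receptors, 3.99-fold lower (log2 fold change -1.996, standard error 0.10, edgeR adjusted p = 1.27e-13). These lists had 70.6% and 80% of their genes called, beside the 78.1% of all genes.

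With PFA against control in the ileum, 0 of the 5 members tested were called. GHR averaged 19.3 ± 6.35 CPM (SD, n = 5) in control ileum and 23.9 ± 5.005 after PFA, a log2 fold change of 0.31 (standard error 0.22). IGF1 was at 6.15 ± 1.39 against 6.61 ± 1.81 CPM, or -0.10 (standard error 0.24), and IGF1R at 28.9 ± 9.24 against 32.01 ± 5.39 CPM, or -0.15 (standard error 0.21). IGFBP2 gave -0.23 (standard error 0.36) and IGFBP4 gave 0.09 (standard error 0.17). For all 5 genes the adjusted p was 0.991 in edgeR, and the diets overlapped. Of the 5 genes 0 had an unadjusted p under 0.05, as had 2.8% of all genes, and 0 were called by DESeq2. EdgeR called 0 of 14300 genes (0%), and DESeq2 called 4. The difference between the PFA effect in the ileum and that in the liver was fitted for all 7 members and gave 0 calls by edgeR and by DESeq2, with 0 of them at an unadjusted p under 0.05 and an edgeR adjusted p of at least 0.976. IGFBP1 and IGFALS passed the filter of this fit through their liver counts. With 1 and 27 counts over all ileum libraries, they have no ileum effect to compare, so for them the test cannot decide the question. In that test 0% of all genes were called by edgeR, 0 by DESeq2, and 4.93% had an unadjusted p under 0.05.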

How the data were processed

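The authors deposited, for each library, whole-number counts of read pairs per Ensembl gene without normalization, made with STAR 2.6.1d (alignment to Sscrofa11.1) and HTSeq; the strand option and the annotation release are not given in the sources used here. The libraries were stranded and poly(A)-enriched. Read pairs on no gene, several genes or several places were left out of library sizes (those on no gene were 6.53% to 20.6% of each library's pairs). The 879920 values shared with the tables of the whole series differed in 0 cases.

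Symbols came from a gene name table (14857 genes), and positions, GC content and the upstream sequence from RefSeq models on Sscrofa11.1. Genes were filtered with filterByExpr and fitted with edgeR 4.0.16 in R 4.3.3 (TMM factors, quasi-likelihood test, two-sided), with 23 liver, 10 ileum and 20 tissue libraries. Standard errors follow from the F statistic. The same pig gave the liver and ileum library, so the pig number pairs them, and the correlation of their deviations from group means ran from -0.181 to 0.456 over 10 pigs. The GC slope was fitted over genes with a GC value, 79.7% of liver and 79.3% of ileum genes, under the 80% set as a minimum, so the check over all genes is void and the slope describes only genes with a value. Within-diet correlations used 100000 permutations within diets, two-sided, adjusted over 5 pairs. Steps were tested on simulated counts. Python 3.11.15 (numpy 2.4.6, pandas 2.3.3, scipy 1.17.1) made the summaries.

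Named were all members, and of the 4 pathway lists the genes called in a comparison (at most the 8 with the smallest p), plus the 3 genes most like the leading members. IGF2BP3 (ranked 9 for the oil), uncalled list genes named as examples, and IGFALS in the plot against GC slope, were chosen after their values were seen. The members and lists were chosen with earlier results of these data known. Replicates are separate pigs. Counting intervals cover counting error only. Alternatives were DESeq2 1.42.0, other scaling, other filters, terms for sex (from Y-linked counts), GC slope, title form or pig, all 24 liver libraries, libraries of 1 title form, fits of 2 diets alone and leaving out each pig.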

Additional observations from a re-analysis of the deposited data

Results flagged for a closer look

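Of 41 groups of 5 or 6 libraries in which a member's level could be tested for a library far from the rest of its group, 10 held one. The cut-off gives about 1 in 20 groups by chance if levels are normally spread. The groups share libraries, and IGFBP1 and IGFALS in the ileum rest on 1 count and at most 9 counts, so the 10 cannot be set against that rate. In the liver, OO Pig130 had IGF1 at 18.4 CPM (the other OO livers 9.56 to 10.7) and IGFALS at 126.03 CPM (0.869 to 38.4), and PFA Pig138 had IGFALS at 56.9 CPM (2.999 to 12.2). Of the livers used in the fits, the library of OO Pig130 had the fewest counted read pairs, 19839171. It also had the most read pairs on several places, 2914157. The part of library quality in the levels of Pig130 was not tested. OO Pig97 had IGFBP1 at 373 CPM (28.3 to 129), PFA Pig95 had IGFBP2 at 148 CPM (243 to 298), and OO + PFA Pig79 had IGFBP4 at 554 CPM (149 to 253).

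In the ileum, control Pig110 had GHR at 30.3 CPM (14.3 to 18.2), and its 1 count of IGFBP1, or 0.0537 CPM, was the only one in the 10 libraries. Control Pig80 had IGF1 at 3.47 CPM (6.84 to 7.91), and PFA Pig134 had IGFALS at 0.371 CPM (0 to 0.0864).

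In the OO + PFA liver left out of the fits, Pig77, IGFALS stood at 98.8 CPM and IGFBP4 at 317 CPM, above the highest control livers (6.77 and 278 CPM). The GC slope of this library was 0.645, above all 23 livers used, and the part of the slope in these levels was not tested.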

How the results depend on the processing

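The number of members called was within 1.5 times of the reported one except as follows. Across the 4 diets (1 reported) it was 4 with DESeq2, 2 without scaling beyond total counts, 0 in PigLiv-titled libraries alone and 0 to 2 when each pig was left out. For OO against control (0) it was 1 with DESeq2 and 0 to 1 with pigs left out. For OO + PFA against control (1) it was 2 with DESeq2, without scaling and in a fit of both diets alone, 0 with a term for sex or GC slope and in PigLiv-titled libraries, 1 with a term for title form, IGF1 in place of IGFALS, and 0 to 2 with pigs left out. For OO + PFA against PFA (1) it was 2 with DESeq2, without scaling, with all 24 livers, with a term for title form and in a fit of both diets alone, 0 in PigLiv-titled libraries, and 0 to 2 with pigs left out. For the oil (4) it was 0 with the GC slope, 2 with all 24 livers, 1 in PigLiv-titled libraries and 0 to 4 with pigs left out. The number of all genes called moved too. Without leaving out single pigs, it ran from 157 to 1776 across the diets and from 6 to 1080 for OO against control. It ran from 237 to 1690 for OO + PFA against control, 30 to 1225 for OO + PFA against PFA and 426 to 2211 for the oil. In PigLiv-titled libraries alone it changed by more than 1.5 times in all of these but the oil. The cause was not tested, except that leaving out libraries leaves fewer samples.

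Differences that changed sign were all without a call. With the GC slope as a term these were GHR (0.11) and IGFBP4 (-0.0269) for OO + PFA against control, IGFALS for OO + PFA against PFA (-0.364), IGFBP2 for the oil (-0.247) and IGFBP2 in the ileum (0.0462). In PL-titled libraries IGFBP1 for OO against control was 0.0485, and in PigLiv-titled libraries IGF1R for the oil was -0.159. With pigs left out, IGFBP1 for OO against control ran from -0.848 to 0.338, IGFBP4 for OO + PFA against control from -0.161 to 0.425, and IGF1R for the oil from -0.0323 to 0.163. Without the 2 livers farthest from the median, r was -0.0426 for IGF1 with IGFBP2 and -0.0106 for IGFBP1 with IGFBP2. With the GC slope removed, r was 0.515 for IGF1 with GHR and 0.776 for IGF1 with IGFALS, and both passed the adjustment.

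With the pig number as a replicate block, the 7 ileum-liver differences kept their direction and call: GHR -3.20, IGF1 -1.61, IGF1R 1.28, IGFALS -6.95, IGFBP1 -14.2, IGFBP2 -7.92 and IGFBP4 -3.48. The liver diets were fed to different pigs and have no pairs. Genes called over the whole table moved more: with DESeq2 there were 1776 across the diets (506 in edgeR), 1079 for OO against control (375), 1370 for OO + PFA against control (702) and 697 for OO + PFA against PFA (218), and with the GC slope 426 for the oil (1630). With 1 pig left out these counts ran from 297 (control Pig85) to 1450 (OO Pig97), 167 (OO Pig130) to 1325 (OO Pig97), 191 (control Pig71) to 1127 (OO Pig97), 103 (OO + PFA Pig137) to 411 (PFA Pig138) and, for the oil, 837 (OO Pig102) to 2672 (OO Pig97). With at least 10 counts in every library, 5 members could be tested between tissues. Counts of pathway genes under each setting were added after seeing the data: for the oil 10 genes became 1 with the GC slope (TAT), 5 in PigLiv-titled libraries and 6 to 19 with pigs left out, and for OO + PFA against PFA 4 became 3, 0 and 3 to 6. Depth limits IGFALS and IGFBP1 in the ileum, where at most 9 counts were found in a library.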
